A study of Mus musculus with 219 samples.

Results

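The zona pellucida and egg-membrane genes of fertilization were followed in mouse embryos made by intracytoplasmic sperm injection (ICSI). They are 6 genes of the 32285 in the count tables: Zp1, Zp2, Zp3, Astl, Izumo1r and Cd9. They were chosen by name, as the glycoproteins of the egg coat, the protease that closes it, and the sperm-binding and fusion proteins of the egg membrane. Oocytes of B6C3F1 females aged 6 to 8 weeks, freed of cumulus cells, were injected with thawed sperm of 2 CD1 males, so that all embryos were of the B6C3F1xCD1 genotype. The sperm head was placed opposite the meiotic spindle (contralateral), beside it (ipsilateral, called isolateral in the labels) or midway (equatorial). For RNA-seq, 2-cell embryos were taken out of the zona and split into their sister blastomeres 22 to 24 h after ICSI, and each sister was sequenced alone. Other split embryos gave twin blastocysts after 72 h of culture of each blastomere alone, and unsplit embryos gave intact blastocysts. After filtering there were 55 pairs of sisters (21 contralateral, 21 ipsilateral, 13 equatorial), 19 pairs of twins (6, 7 and 6) and 31 intact blastocysts (11, 8 and 12), the embryo being the replicate. Of the 2-cell embryos, 42 were on plate 1 and 13 on plate 2, and all blastocysts were on plate 2.

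The zona pellucida is the glycoprotein coat that the growing oocyte lays around itself. In the mouse it is built from filaments of ZP2 and ZP3, cross-linked by ZP1. Sperm bind at the N-terminal part of ZP2. Astl encodes ovastacin, a protease of the cortical granules which is released after fertilization and cleaves ZP2, so that no further sperm bind. At the egg membrane, Juno, the product of Izumo1r, binds IZUMO1 on the sperm, and the tetraspanin CD9 is needed for the fusion that follows. ICSI bypasses both the zona and the fusion step, and the messages measured here in 2-cell embryos had been made by the oocyte or by the embryo after injection, which a level cannot tell apart.

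Promoter stretches are shown for Zp3 and Astl, which were low or at 0 in blastocysts, and for Cd9, which was higher there than in 2-cell embryos. Each is 200 bases long, from 250 to 51 bases before the RefSeq start, on GRCm38.p6 and read on the strand of the gene. Zp3 lies on the plus strand at chr5:135979855-135980054, Astl on the plus strand at chr2:127338389-127338588 and Cd9 on the minus strand at chr6:125494811-125495010. Capitals mark CANNTG, the E-box to which helix-loop-helix proteins such as FIGLA bind, searched on both strands.
Zp3: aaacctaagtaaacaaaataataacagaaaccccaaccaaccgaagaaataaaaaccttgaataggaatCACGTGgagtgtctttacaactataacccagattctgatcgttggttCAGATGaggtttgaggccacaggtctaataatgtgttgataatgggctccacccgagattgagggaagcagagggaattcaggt
Astl: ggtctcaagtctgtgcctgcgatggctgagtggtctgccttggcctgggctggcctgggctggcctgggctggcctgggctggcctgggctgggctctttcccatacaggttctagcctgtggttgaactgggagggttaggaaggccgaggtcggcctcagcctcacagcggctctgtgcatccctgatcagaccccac
Cd9: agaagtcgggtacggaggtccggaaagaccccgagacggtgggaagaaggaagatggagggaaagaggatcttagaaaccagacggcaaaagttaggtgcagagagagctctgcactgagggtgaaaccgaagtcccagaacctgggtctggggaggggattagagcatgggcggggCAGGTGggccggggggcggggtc
The Zp3 stretch held 2 E-boxes, 1 of them the palindrome CACGTG, that of Cd9 held 1, and that of Astl held 0. A second RefSeq window of Astl and the 1 window of Izumo1r were not printed because they overlap a gene model. That of Astl held 3 E-boxes, each CAGGTG, and that of Izumo1r held 1, CACCTG. An E-box was present in 59.05% of all 32851 promoter stretches of this length, and CACGTG, which is a form of CANNTG and overlaps it, in 4.338%. The stretch of Zp3 was poorer in G and C than those of Astl and Cd9, which had a GC content of 60.5% or more.

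On GRCm38, in the GENCODE M21 annotation, Zp1 (ENSMUSG00000024734) spans chr19:10914287-10920632 and Zp2 (ENSMUSG00000030911) spans chr7:120126772-120145291, both on the minus strand. Zp3 (ENSMUSG00000004948) spans chr5:135980099-135988624 and Astl (ENSMUSG00000050468) spans chr2:127338639-127357651, both on the plus strand. Izumo1r (ENSMUSG00000031933) at chr9:14885814-14903949 and Cd9 (ENSMUSG00000030342) at chr6:125460266-125494791 are on the minus strand. Exons of 5 of the 6 genes overlapped no exon of another gene. An exon of Cd9 overlapped Gm26728, on the other strand, over up to 218 bases, and reads there cannot be told apart because strand was not used in counting.

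All 6 genes were measured well above 0 in 2-cell embryos. With the counts of both sisters added and scaled to a library of 1000000 counts (CPM), Zp2 averaged 109.3 ± 32.7 CPM, Zp3 56.5 ± 23.4 CPM and Zp1 44.9 ± 16.8 CPM (SD, n = 55). Astl averaged 20.2 ± 10.9 CPM, Izumo1r 60.1 ± 32.3 CPM and Cd9 67.3 ± 31.5 CPM. Each gene had counts in all 55 embryos, and together they took 0.0358% ± 0.00620 (SD) of an embryo's counts. Depth was a median of 1340425 counts per blastomere, from 360474 to 2100561.

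Compared per transcript length (TPM, scaled to the same sum), Zp3 stood highest with 141 ± 59.9, followed by Zp2 with 133 ± 41.1, Cd9 with 107.3 ± 48.6, Izumo1r with 85.1 ± 44.9, Zp1 with 75.1 ± 28.9 and Astl with 26.3 ± 14.5 (SD, n = 55). Neighbours in this order were not apart beyond their spread except for the last step. Zp3 exceeded Zp2 in 31 of 55 embryos, Zp2 exceeded Cd9 in 34, Cd9 exceeded Izumo1r in 35 and Izumo1r exceeded Zp1 in 34. Zp1 exceeded Astl in 53 of 55. Zp1, which encodes the cross-linker of the coat, had less message per length on average than either filament gene, and the cortical granule protease had the least.

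The label of the samples was checked against markers. All 6 oocyte markers were present in all 55 of the 2-cell embryos, with a summed level of 2479 to 4092 CPM, and the trophectoderm list summed to 6.23 to 197 CPM there but to 2957 to 5894 CPM in intact blastocysts. Of 12 cumulus cell markers 11 had counts in some 2-cell embryo, with a summed level of 0 to 59.1 CPM (median 16.5); Inha was at 0 in all of them, Ptx3 had counts in 1 embryo, and Cyp19a1, at 9.35 ± 10.3 CPM, was the highest. The part of these messages in the results was not tested.

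**Figure D1:**
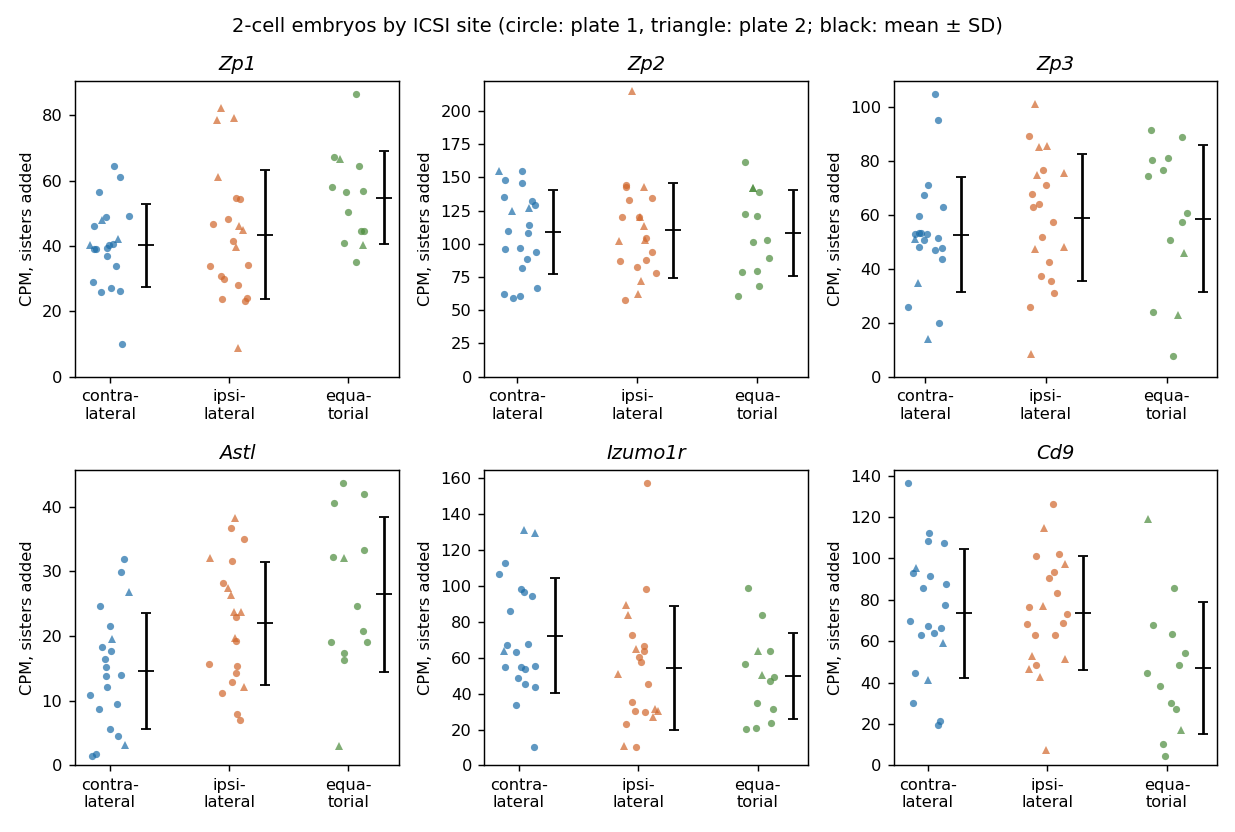
Level of each gene (CPM, sisters added, linear axis from 0) in 2-cell embryos by ICSI site, with 1 point per embryo, circles for plate 1, triangles for plate 2 and black bars for mean ± SD (n = 21, 21 and 13). The groups overlap for every gene; Astl and Zp1 had their highest means and Cd9 its lowest mean after equatorial ICSI.

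The site of sperm deposition was compared for each gene, with the question whether the messages of these genes differed between embryos started at different sites. No member passed the test in any of the 3 comparisons (edgeR quasi-likelihood test on added counts with plate as a covariate, Benjamini-Hochberg over 13141 genes). Over all genes, 13.2% were called between contralateral and equatorial ICSI, 6.65% between ipsilateral and equatorial ICSI and 0% between contralateral and ipsilateral ICSI, where 555 of 13141 genes had an unadjusted p under 0.05 and DESeq2 called 0.474% of those it tested. The members came nearest to the threshold against the equatorial group, where Astl and Zp1 were lower and Cd9 higher after contralateral ICSI.

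Among the zona genes, Zp2 was the most even. It ranged from 59.1 to 155 CPM (median 110) after contralateral, from 57.4 to 215 CPM (median 104) after ipsilateral and from 60.5 to 162 CPM (median 103) after equatorial ICSI. The groups overlapped almost fully, and the log2 differences were 0.01 ± 0.15 (SE) for contralateral minus equatorial, -0.04 ± 0.16 for ipsilateral minus equatorial and 0.05 ± 0.14 for contralateral minus ipsilateral ICSI. Zp3 ranged from 13.9 to 104.8 CPM (median 51.5), from 8.43 to 101.1 CPM (median 63.1) and from 7.57 to 91.5 CPM (median 60.5) in the same order. Its groups overlapped too, and its log2 differences lay between -0.21 and 0.05 with SEs of 0.23 to 0.26.

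Zp1 ranged from 10.1 to 64.4 CPM (median 40.2) after contralateral and from 8.67 to 82.2 CPM (median 41.4) after ipsilateral ICSI, and from 35.1 to 86.5 CPM (median 56.3) after equatorial ICSI. The equatorial embryos lacked the low values seen in both other groups. The log2 difference was -0.45 ± 0.21 (SE) for contralateral minus equatorial ICSI (edgeR adjusted p = 0.14) and -0.46 ± 0.22 for ipsilateral minus equatorial ICSI (edgeR adjusted p = 0.21). A 2-sided rank-sum test on TPM of the added counts, without a plate term and adjusted over the same genes, was also run. It gave 0.020 for the first of these and 0.15 for the second. The study's own rank-sum test differed, since it added the TPM of the sisters and named no adjustment.

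Astl, the cortical granule protease, ran from 1.495 to 31.9 CPM (median 14.04) after contralateral, from 7.01 to 38.3 CPM (median 22.997) after ipsilateral and from 3.06 to 43.6 CPM (median 24.6) after equatorial ICSI. The contralateral mean of 14.7 ± 8.97 CPM was below the equatorial mean of 26.5 ± 11.97 CPM (SD). The log2 difference was -0.86 ± 0.33 (SE, edgeR unadjusted p = 0.011, adjusted p = 0.070). The gene passed under DESeq2 (adjusted p = 0.044) and under the rank-sum test (adjusted p = 0.032). It did not pass in edgeR with RLE factors, library size alone or no low-count filter (adjusted p = 0.077, 0.071 and 0.084). Nor did it pass within plate 1 or with all pairs. Ipsilateral embryos lay between, at a log2 difference of -0.33 ± 0.35 from the equatorial and -0.53 ± 0.30 for contralateral minus ipsilateral ICSI, neither of which passed.

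At the membrane, Izumo1r ranged from 10.3 to 132 CPM (median 63.6), from 10.2 to 157 CPM (median 51.1) and from 20.5 to 98.9 CPM (median 49.5) after contralateral, ipsilateral and equatorial ICSI. The contralateral mean was the highest at 72.4 ± 31.97 CPM (SD), with a log2 difference of 0.53 ± 0.28 (SE) from the equatorial and 0.44 ± 0.24 from the ipsilateral group (edgeR adjusted p = 0.21 and 1). Cd9 ranged from 19.4 to 136 CPM (median 69.8), from 7.38 to 126.2 CPM (median 72.95) and from 4.78 to 119.05 CPM (median 44.5) in the same order. Both polar groups, with means of 73.4 ± 31.04 and 73.7 ± 27.6 CPM (SD), lay above the equatorial 47.1 ± 31.9 CPM, and the highest equatorial embryo still reached into the upper range of the others.

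The log2 difference of Cd9 was 0.63 ± 0.27 (SE) for contralateral and 0.65 ± 0.27 for ipsilateral minus equatorial ICSI (edgeR adjusted p = 0.12 and 0.16). Within plate 1 both passed, at 0.81 ± 0.27 and 0.91 ± 0.28 (edgeR adjusted p = 0.028 and 0.032). On plate 2 the equatorial mean was not the lowest. Cd9 averaged 65.2 ± 27.6 CPM contralateral (n = 3), 61.3 ± 33.9 CPM ipsilateral (n = 8) and 68.1 ± 72.1 CPM equatorial (SD, n = 2). These groups are too small to compare. Equatorial embryos also had fewer detected genes and counts, at 11461 ± 659 genes against 12018 ± 551 contralateral and 12080 ± 610 ipsilateral (SD), and a total of 2293030 ± 492637 counts against 2575530 ± 548879 and 3022460 ± 530536. With total counts and detected genes as covariates the Cd9 differences were 0.38 ± 0.28 and 0.25 ± 0.31 (edgeR adjusted p = 0.48 and 0.83).

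**Figure D2:**
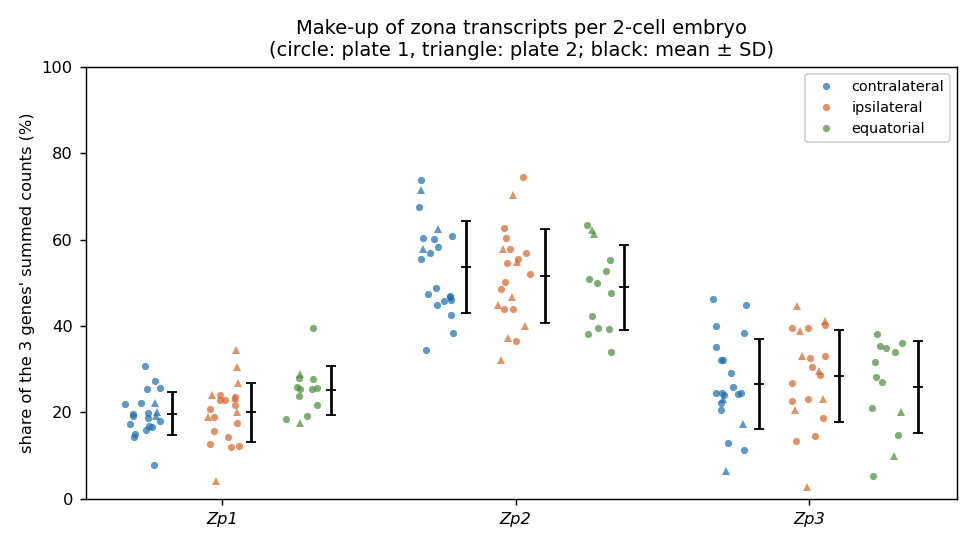
Share of Zp1, Zp2 and Zp3 in the summed counts of the 3 genes (percent, axis from 0 to 100) per 2-cell embryo, by ICSI site, with circles for plate 1, triangles for plate 2 and black bars for mean ± SD. The Zp1 share averaged 25.2% after equatorial and 19.7% and 20.1% after contralateral and ipsilateral ICSI. The groups overlapped for each of the 3 genes.

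The make-up of the coat's messages was compared within each embryo, as a share of the 3 zona genes' counts, which does not depend on how a library is scaled. Zp1 made up 19.7% ± 4.98 after contralateral, 20.1% ± 6.83 after ipsilateral and 25.2% ± 5.69 after equatorial ICSI (SD, n = 21, 21 and 13). The embryos ran from 7.85% to 30.7%, from 4.19% to 34.5% and from 17.6% to 39.5%, so the equatorial group again lacked the low end. The difference of contralateral minus equatorial ICSI was -5.45 percentage points and passed (p = 0.0052 by permuting embryos, 2-sided, and 0.047 after adjustment for 9 comparisons). That of ipsilateral minus equatorial ICSI was -5.07 points (permutation p = 0.032, adjusted p = 0.14).

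Within plate 1 alone both differences passed, at -5.92 and -7.10 points (permutation test, adjusted p = 0.033 and 0.014). Left out in turn, 23 of the 34 contralateral and equatorial embryos took the adjusted p of the first difference to 0.05 or above, at most 0.14, while the difference stayed between -6.07 and -4.25 points. Zp2, the largest share at 51.7% ± 10.5, and Zp3 at 27.1% ± 10.5 (SD, n = 55) did not pass in any comparison, with adjusted p of 0.62 to 0.84.

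**Figure D3:**
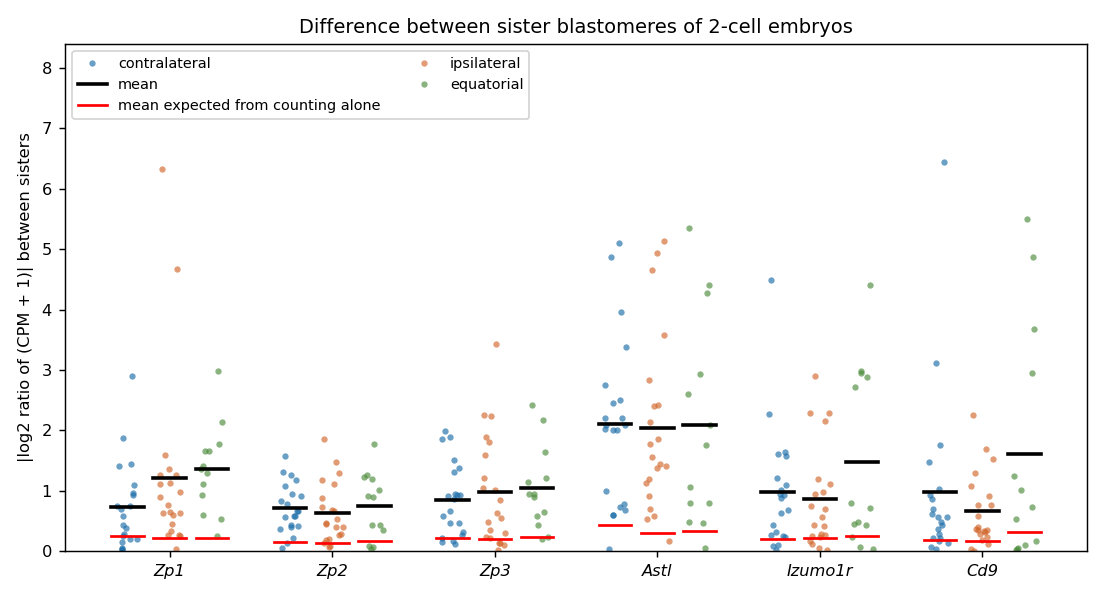
Absolute log2 ratio of (CPM + 1) between the sister blastomeres of each 2-cell embryo (linear axis), by gene and ICSI site, with 1 point per embryo, black lines for group means and red lines for the mean expected from counting alone. Every group mean lies above its red line, and Astl has the highest means, from 2.03 to 2.10.

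The mean difference between sisters exceeded counting error for all 6 genes. It was computed for these genes only, so whether other genes differ less was not tested. The spread was measured as the absolute log2 ratio of (CPM + 1) between sisters, because the letters a and b carry no order, and was set against the ratio that a random split of the embryo's reads between the libraries would give. Zp2 had the lowest mean at 0.69 ± 0.47 (SD, n = 55), against 0.14 from counting alone. By the median Cd9 was lower, at 0.53 beside 0.58 for Zp2. The mean of Zp2 was 4.80 times its counting value, within the 4.47 to 5.81 times of the other genes. Zp3 averaged 0.94 ± 0.75, Cd9 1.00 ± 1.38, Izumo1r 1.05 ± 1.09 and Zp1 1.06 ± 1.11, where counting gave 0.21 to 0.23. Astl, the least abundant of the 6, averaged 2.07 ± 1.47 against 0.36 from counting, and its sisters were more than 2-fold apart in 38 of 55 embryos. Counting covers only the sampling of reads, and losses of RNA during the conversion of single cells to cDNA cannot be told apart from unequal content.

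The largest gaps were all-or-nothing. A contralateral embryo had 0 and 120 counts of Cd9 in its sisters (0 and 86.3 CPM), an ipsilateral embryo had 0 and 79.2 CPM of Zp1, and an equatorial embryo had 0 and 52 counts of Astl together with 0 and 58 of Cd9, both lacking in the same blastomere. Such zeros were rare outside Astl. Of the 110 blastomeres, all had counts of Zp2 and of Zp3, 1 lacked Zp1, 1 lacked Izumo1r, 4 lacked Cd9 and 11 lacked Astl. The widest sister gap of Zp2 was 100.7 against 27.1 CPM, in an ipsilateral embryo.

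The spread between sisters did not pass between ICSI sites in any of 18 tests (6 genes, 3 comparisons, 2-sided permutation tests adjusted together). Zp1 sisters differed by 0.73 ± 0.72 after contralateral and by 1.36 ± 0.73 after equatorial ICSI (SD; permutation p = 0.019, adjusted p = 0.34). Cd9 sisters differed by 0.66 ± 0.60 after ipsilateral and 1.61 ± 1.96 after equatorial ICSI (permutation p = 0.039, adjusted p = 0.35). These were the only tests with an unadjusted p under 0.05, and for Astl the means at the 3 sites were 2.10, 2.03 and 2.08.

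Sisters of the same embryo were also compared with blastomeres of different embryos, with the question whether embryos differ from each other beyond the gap between sisters. The intraclass correlation of log2(CPM + 1), taken after subtracting the mean of site and plate, was -0.13 for Zp1, 0.05 for Zp2, 0.29 for Zp3, 0.22 for Izumo1r, 0.25 for Cd9 and -0.19 for Astl (n = 55 embryos). None passed when blastomeres were re-paired at random within site and plate (permutation test, adjusted p = 0.17 for Zp3 and 0.29 to 0.75 for the others). The value of Zp3 fell to 0.01 without the 2 embryos farthest from the median.

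Pairs of the 6 genes were compared over the embryos. Of 15 pairs of genes only Zp2 and Izumo1r passed, with Pearson's r of 0.42 and Spearman's rho of 0.46 over 55 embryos (permutation p = 0.0014 and 0.00052, adjusted p = 0.022 and 0.0078 over 15 pairs). The value of r was 0.38 without the 2 embryos farthest from the median of Zp2, and between 0.39 and 0.49 with any single embryo left out. No run was aimed at the 2 embryos far below the rest in Izumo1r. Within plate 1 r was 0.37 (permutation test, n = 42, adjusted p = 0.082) and did not pass, while rho was 0.45 (adjusted p = 0.046) and passed. With total counts and detected genes regressed out, r was 0.38 and rho 0.39 (permutation test, adjusted p = 0.070 and 0.052). The other 14 pairs had r from -0.26 to 0.31. Zp2 and Zp3, whose products form the same filaments, had r = -0.22 (permutation test, adjusted p = 0.31). Among 9255 genes with a mean of at least 10 CPM, the 99th percentile of r was 0.48 with Izumo1r and 0.37 with Zp2. The r of 0.42 between Zp2 and Izumo1r lay below the first and above the second. Values of 1 embryo come from the same libraries.

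**Figure D4:**
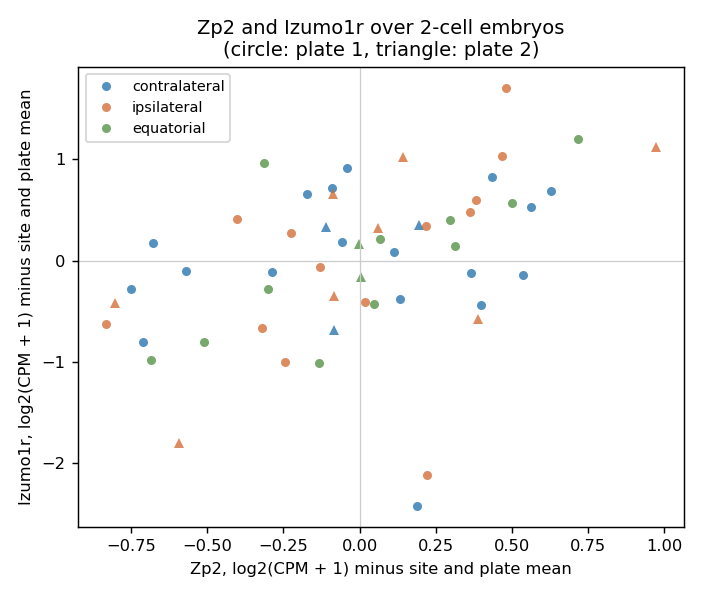
Zp2 (x axis) against Izumo1r (y axis) over 55 of the 2-cell embryos, as log2(CPM + 1) after subtracting the mean of site and plate, with circles for plate 1 and triangles for plate 2. Izumo1r tends to be higher where Zp2 is higher (r = 0.42), with 2 embryos far below the rest in Izumo1r.

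Each gene was set beside the genes whose level followed it most closely over the same embryos, as a description without a test. Among 9255 genes with a mean of at least 10 CPM, the highest r with Izumo1r were those of Nobox (0.60), an oocyte homeobox factor, Oas1c (0.60) and Xdh (0.60). Zp2 was followed by Scap (0.53), Deptor (0.52) and Dnajc13 (0.52). For Zp3 they were Bbs2 (0.55), Ahctf1 (0.54) and Nfatc3 (0.52), and for Zp1 they were Cep68 (0.53), Reep4 (0.51) and Coro1c (0.50). Astl was closest to Fbxo11 (0.55), Tmem250-ps (0.52) and Plag1 (0.51). Cd9 had the highest values, for Ciao2a (0.70), Bccip (0.67) and Gm34397 (0.67), and the 99th percentile of r over all these genes was 0.53 for Cd9, 0.48 for Izumo1r and 0.33 to 0.39 for the other 4. Cd9 also followed the number of detected genes (r = 0.42) and log10 total counts (r = 0.36). The other members had r from -0.10 to 0.18 with these. The values of r between genes were not corrected for depth, and its part in them was not tested.

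**Figure D5:**
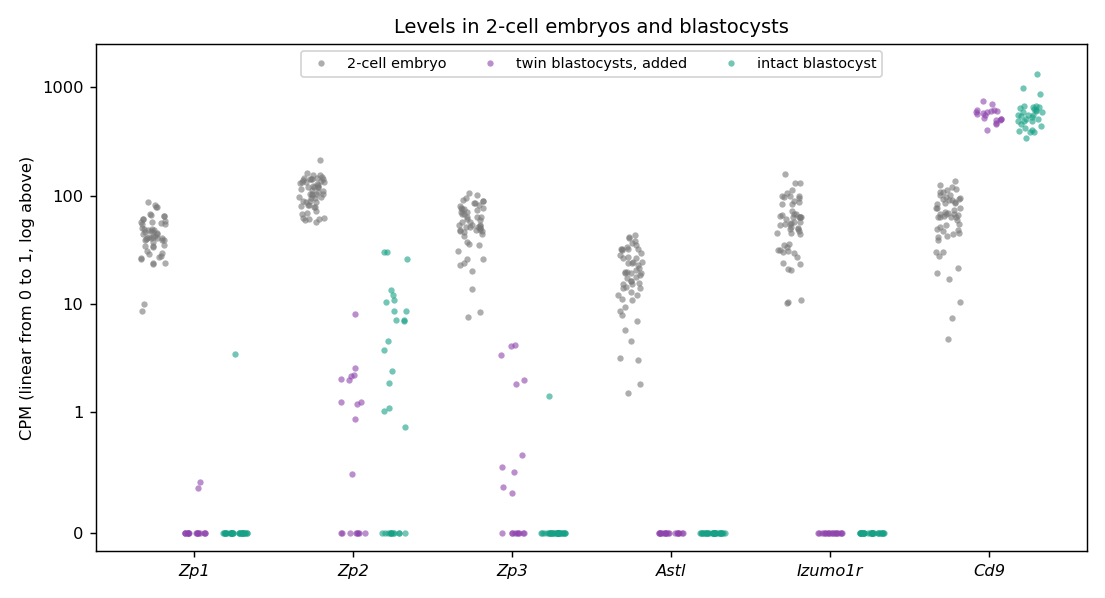
Level of each gene in 2-cell embryos (n = 55), twin blastocysts (twins added, n = 19) and intact blastocysts (n = 31), in CPM on an axis that is linear from 0 to 1 and logarithmic above, with 1 point per embryo. Izumo1r and Astl are at 0 in all blastocysts, Zp1 and Zp3 are at 0 in most intact ones, Zp2 reaches 29.99 CPM in them, and Cd9 is higher than in any 2-cell embryo.

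In blastocysts the messages of these genes were at 0 or far below their 2-cell level, with the exception of Cd9. In bulk libraries of whole embryos, fewer cells of a type and less RNA per cell cannot be told apart. Izumo1r and Astl had 0 counts in all 31 intact blastocysts and all 38 twins. Taking 3 counts over the summed depth of each group as the limit that a count of 0 allows, 0.136 CPM in intact and 0.0688 CPM in twin blastocysts, Izumo1r was at least 439-fold lower in intact and at least 866-fold lower in twin blastocysts than in 2-cell embryos, where its pooled level was 59.5 CPM. For Astl, at 20.1 CPM in 2-cell embryos, the bounds were 148-fold and 292-fold. Limits and intervals cover counting error only.

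Zp1 had 2 counts over all intact blastocysts, both in 1 ipsilateral embryo, and 2 over all twins. Its pooled level was 497-fold higher in 2-cell embryos than in intact blastocysts (exact 95% interval of the counts 137 to 4102) and 980-fold higher than in twins (271 to 8091). Zp3 had 1 count over all intact blastocysts, which puts it 1256-fold lower there (225 to 49623). In twins it had 40 counts, and was 61.9-fold lower than in 2-cell embryos (45.4 to 86.8).

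Zp2 was the zona message most often left in intact blastocysts. It had counts in 19 of the 31, with 0 to 29.99 CPM (median 1.87, mean 6.02 ± 8.63 SD). In 2-cell embryos it had 57.4 to 215 CPM, so that the stages did not overlap. The share of all genes without overlap was not counted, and 84.9% of 12645 genes were called between these stages. Its log2 difference between 2-cell embryos and intact blastocysts was 4.67 ± 0.28 (SE), or 25.5-fold (edgeR adjusted p = 8.5e-29 with ICSI site as a covariate). Zp2 entered this test through its level in 2-cell embryos, which fixed its direction, so that the p-value adds little to the ranges.

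Cd9 went the other way. It ranged from 4.78 to 136 CPM in 2-cell embryos (median 67.4) and from 337 to 1320 CPM in intact blastocysts (median 549). In added twins it ranged from 405 to 751 CPM (median 567.6). The 2-cell range overlapped neither of these, and the share of all genes of which this holds was not counted. The log2 difference between 2-cell embryos and intact blastocysts was -2.88 ± 0.15 (SE), so that Cd9 was 7.35-fold higher in blastocysts (edgeR adjusted p = 3.1e-33). CD9 is a widely expressed tetraspanin with uses beyond the egg membrane. Per length it stood at 812 ± 267 TPM in intact blastocysts (SD, n = 31).

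All 6 members passed between the stages, where 84.9% of 12645 genes were called, 49.1% higher in 2-cell embryos and 35.7% lower. The call says little for Zp1, Zp2, Zp3, Izumo1r and Astl, which entered the test through their level in 2-cell embryos alone. Plate and stage coincide in part, since plate 1 held no blastocyst. With the 13 plate 2 embryos alone, Zp2 stayed 32.5-fold higher in 2-cell embryos and Cd9 was 7.23-fold higher in intact blastocysts. The other 4 members did not pass the filter on low counts in that smaller set, and averaged 52.1 CPM (Zp1), 53.4 CPM (Zp3), 63.7 CPM (Izumo1r) and 22.1 CPM (Astl) in those 13 embryos. The median log2 difference of the 12645 filtered genes was 0.43 as scaled here, 0.34 with RLE factors and 0.11 with library size alone. Over 26294 genes without that filter it was 0.47 by edgeR and -0.50 under DESeq2. Each member kept its direction under all of these.

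Genes that work with the members were counted from lists. Of 10 genes of zona gene control, zona protein processing and oocyte secretion, 8 were tested between 2-cell embryos and intact blastocysts, 6 were higher in 2-cell embryos, 0 lower and 2 did not pass. Oosp1 and Oosp3, oocyte secreted proteins, averaged 771 ± 115.3 and 589 ± 109.04 CPM (SD) in 2-cell embryos and were at 0 in all intact blastocysts, as were Oosp2 and Nobox. The other 2 called genes, Lhx8 and Zar1, had counts in 2 of 31 intact blastocysts each. All 6 entered the test through their level in 2-cell embryos, which fixed their direction, so that the count and the median are a description only. The list's median log2 difference was 9.15, or 8.57 with the 4 genes at 0 put at their bound, against 0.43 over all genes. Figla, the factor that switches on the zona genes in growing oocytes, had counts in 7 of 55 of the 2-cell embryos and was too low to be tested; it is named for its role.

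Of 12 egg-membrane partners 11 were tested, 3 were higher in 2-cell embryos, 6 were lower and 2 did not pass, a share near the 84.9% called over all genes, with a median log2 difference of -2.22. Itga9, an integrin chain reported as a partner of sperm ligands at the egg surface, was 82.2-fold higher in 2-cell embryos (log2 6.36 ± 0.30 SE). Cd82, Cd81 and Igsf8 were lower by log2 -7.90 ± 0.36, -5.47 ± 0.50 and -4.40 ± 0.54 (SE). Itga9 had counts in 15 of 31 intact blastocysts and Igsf8 in 16 of 55 of the 2-cell embryos. Both entered the test through the group where they were high, which fixed their direction. Cd81, a tetraspanin close to CD9 in the egg membrane, had counts in 7 of 55 of the 2-cell embryos and in all 31 intact blastocysts.

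Of 11 genes of cortical granule release 10 were tested, and 6 were higher and 4 lower in 2-cell embryos, with a median log2 difference of 0.69. Myo5a and Rab27a, which carry and dock secretory vesicles, were 11.5-fold and 8.84-fold higher, as was Rab3a, a GTPase of regulated secretion, by 4.66-fold, while the t-SNARE Stx4a was lower, at log2 -2.26 ± 0.30 (SE). Of 11 sperm-side fusion genes 1 was tested, Spaca6, and it was lower in 2-cell embryos by log2 -6.58 ± 0.50 (SE). Spaca6, Cd81 and Cd82 had counts in 3, 7 and 5 of 55 of the 2-cell embryos and entered the test through the blastocysts, which fixed their direction. Rab3a had counts in 16 of 31 intact blastocysts and entered through the 2-cell group, which fixed its direction too. Of the cumulus list 1 of 12 was tested, Cyp19a1, which was higher in 2-cell embryos and at 0 in all intact blastocysts. The 6 oocyte markers were all higher in 2-cell embryos and the 6 trophectoderm markers all lower. Cyp19a1 entered the test through the 2-cell group, so that its direction was fixed. So did the oocyte markers Oog1 (counts in 0 of 31 intact blastocysts), Mos and Bmp15 (1 of 31 each), Nlrp5 (3 of 31) and Gdf9 (7 of 31). Of the epiblast list 2 of 5 were higher and 1 lower, and of the primitive endoderm list 1 of 5 was higher and 4 were lower. Cdx2 and Elf5 had counts in 4 and 25 of 55 of the 2-cell embryos, Elf5 at 3.08 CPM at most. Sox17, Pdgfra and Sox7 had counts in 17, 21 and 3 of the 55. These markers entered the test through the blastocysts, which fixed their direction. Over all genes 49.1% were higher in 2-cell embryos and 35.7% lower.

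The same lists were counted by ICSI site in 2-cell embryos, where 13.2% of all genes were called between contralateral and equatorial and 6.65% between ipsilateral and equatorial ICSI. Between contralateral and equatorial ICSI, 2 of 8 tested zona-making genes were higher, Oosp2 by log2 0.79 ± 0.21 (SE) and Oosp3 by 0.37 ± 0.08, and Snap23, which drives exocytosis, was higher by 0.62 ± 0.16, while Calr, which encodes the calcium-binding chaperone calreticulin, fell by 0.58 ± 0.14 on the log2 scale. Of the oocyte markers Dppa3 was higher by 0.25 ± 0.09 and Gdf9 was lower, at -0.31 ± 0.09, and 4 of 6 did not pass. Between ipsilateral and equatorial ICSI, Snap23 was higher by 0.63 ± 0.16 and Itga9 by 0.37 ± 0.10. None of the tested genes of the other lists passed in these comparisons, and none of any list passed between contralateral and ipsilateral ICSI. The medians of the zona-making, membrane and granule lists were 0.13, -0.22 and 0.11 for contralateral minus equatorial ICSI, where the median of all genes was -0.00015. For ipsilateral minus equatorial ICSI they were -0.01, -0.30 and 0.03, beside 0.01 over all genes, and for contralateral minus ipsilateral ICSI they were 0.16, -0.0034 and -0.08, beside 0.0019.

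The remnants of Zp2 and Zp3 were compared between twin and intact blastocysts, where their means differed in opposite directions. Zp3 had counts in 10 of 19 twin pairs, up to 10 counts or 4.17 CPM in a pair, and in 1 of 31 intact blastocysts, an equatorial one with 1 count (1.43 CPM). Its mean was 0.940 ± 1.44 CPM in twins and 0.0460 ± 0.256 CPM in intact blastocysts (SD; p = 0.00044 by permuting embryos, 2-sided, and 0.0022 after adjustment for 5 comparisons). In 9 of these 10 pairs only 1 of the twins had counts of Zp3. Of 38 twins only 5 had more than 3 counts of it. A pair with 1 count can show it in 1 twin only, so low counts fix part of this number.

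Zp2 had counts in 11 of 19 twin pairs, up to 21 counts or 8.01 CPM in a pair, and its mean of 1.27 ± 1.88 CPM was below the 6.02 ± 8.63 CPM of intact blastocysts (SD; permutation test, p = 0.017, adjusted p = 0.043). In 9 of the 11 pairs only 1 twin had counts. Of 38 twins only 7 had more than 3 counts of Zp2, so low counts limit this number too. The highest intact blastocysts were 3 contralateral ones at 25.8, 29.9 and 29.99 CPM, with 7, 7 and 19 counts. The contralateral intact blastocysts averaged 10.9 ± 12.1 CPM, the ipsilateral 4.69 ± 3.62 CPM and the equatorial 2.43 ± 4.84 CPM (SD, n = 11, 8 and 12), and no pair of sites passed (contralateral against equatorial ICSI, permutation p = 0.036, adjusted p = 0.061). Whether the site difference of Zp2 itself changed between 2-cell embryos and intact blastocysts was tested with an interaction term and did not pass (edgeR p = 0.016, adjusted p = 0.18).

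Zp2 and Zp3 were chosen for these permutation tests after the values were seen. Only 1 of the 6 members, Cd9, passed the filter on low counts between twin and intact blastocysts. The filter therefore does not explain why Zp2 and Zp3 were picked. The permutation p-values, also those with embryos left out, were adjusted only over the comparisons picked. They cannot decide whether twin and intact blastocysts differ in these genes, because the same values guided the choice. Without that filter edgeR gave Zp3 a log2 difference of 2.87 ± 0.64 (SE; adjusted p = 0.00028), while DESeq2 gave 1.52 ± 1.48 (unadjusted p = 0.31, no adjusted p), so that the call of Zp3 does not hold under DESeq2. In the permutation test the difference of Zp3 passed with each of the 50 embryos left out in turn (adjusted p at most 0.0072), and that of Zp2 lost its call in 27 of 50, with an unadjusted p of at most 0.026 and an adjusted p of at most 0.061. Depth was a median of 1093478 counts per twin, of which 2 were added, and 705837 per intact blastocyst. The oocyte list summed to 330 to 684 CPM in twins and 0 to 403 CPM in intact blastocysts, and most of it was Dppa3, which was 6.94-fold higher in twins; Mos was at 0 in twins and Oog1 at 0 in intact blastocysts. The part of these values in the Zp2 and Zp3 differences was not tested.

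Of the lists, 10 egg-membrane partners were tested between twin and intact blastocysts, of which 3 were higher in twins, 5 lower and 2 did not pass (median log2 difference -0.28, beside -0.0073 over all genes, of which 42.3% were called). Lineage markers moved in the same comparison: 4 of 5 epiblast markers were higher in twins (median 0.80), and of 6 trophectoderm markers 1 was higher and 3 were lower (median -0.43). Of 5 primitive endoderm markers 1 was higher and 1 lower (median -0.21). Their part in the list's values was not tested. Igsf8, an immunoglobulin partner of CD9, and Itgav were lower in twins, by log2 -4.43 ± 0.53 and -1.54 ± 0.22 (SE), and the integrin chains Itga3 and Itgb5 were 6.20-fold and 3.40-fold higher. Igsf8 had counts in 12 of 19 twin pairs, and Itga3 had a median of 2.62 CPM in intact blastocysts. Each entered the test through the group where it was high, which fixed its direction. Of 9 tested genes of granule release 2 were lower in twins, Calr at log2 -0.99 ± 0.14 and Nsf at -0.47 ± 0.15 (SE), and neither of the 2 tested zona-making genes passed.

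Cd9 did not pass between twin and intact blastocysts, at 560 ± 83.3 CPM in added twins and 577 ± 193 CPM in intact blastocysts (SD), a log2 difference of -0.14 ± 0.11 (SE; edgeR adjusted p = 0.28), where 42.3% of 9379 genes were called. Twins of the same embryo differed in Cd9 by an absolute log2 ratio of 0.21 ± 0.16 (SD, n = 19). Between sister blastomeres it was 1.00 ± 1.38, with a median of 0.53. The 2 values are not alike, since twins are whole blastocysts and blastomeres single cells. Twins had a median of 648.5 counts of Cd9, and blastomeres had 86, with 4 of 110 at 0. Cd9 did not pass between ICSI sites either. In twins it averaged 616 ± 80.0, 512 ± 64.3 and 559 ± 81.8 CPM (SD) after contralateral, ipsilateral and equatorial ICSI, and the log2 difference of contralateral minus ipsilateral ICSI was 0.31 ± 0.10 (SE; unadjusted p = 0.0055, edgeR adjusted p = 0.65).

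In intact blastocysts Cd9 averaged 634 ± 284, 587 ± 136 and 517 ± 97.3 CPM (SD) in the same order, and the contralateral group held the highest embryo, at 1320 CPM. The contralateral minus equatorial log2 difference was 0.34 ± 0.18 (SE; edgeR adjusted p = 0.73), and 0.16 ± 0.16 without that embryo. Over all genes 0% were called in any comparison of sites among blastocysts by edgeR, where 426 to 754 of 10995 genes in twins and 338 to 629 of 9165 in intact blastocysts had an unadjusted p under 0.05, and DESeq2 called 6, 1 and 0 in twins and 1, 0 and 0 in intact blastocysts.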

How the data were processed

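Reads of SMART-Seq libraries were trimmed by the authors with Trimmomatic, cut to 100 bases where longer, and aligned without use of strand by STAR 2.7.10b (GRCm38, GENCODE M23). Raw counts per gene, not normalized, were deposited by the authors for 125 blastomeres and 69 blastocysts in separate tables; 25 labelled samples have no column and were not analysed here. The tables carry gene symbols. Libraries with at least 9500 (blastomeres) or 4000 (blastocysts) detected genes were kept, and counts of sisters or twins were added. No 2 of 194 libraries were identical. CPM and TPM were computed here, TPM with exon lengths from GENCODE M21 (32235 genes), a release other than that of the files.

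Counts were tested with edgeR 4.0.16 (quasi-likelihood, robust, TMM, filterByExpr, Benjamini-Hochberg, threshold 0.05) and, as an alternative, DESeq2 1.42.0. Permutation tests used 100000 permutations in numpy 2.4.6. Scripts were tested on simulated data. Labels do not say whether embryos share a mother, and p-values measure the spread between embryos. SMART-Seq counts are not independent molecules. Promoter stretches are from RefSeq (GRCm38.p6), in which 4 of the 6 genes matched. The members and lists were chosen with earlier results of these data known. Named genes are the members, list genes past the threshold with the largest changes (up to 4 per list), list genes used to check a label, and the 3 genes most like each member.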

Additional observations from a re-analysis of the deposited data

Results flagged for a closer look

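Dixon's test was run on 14 groups of 6 to 8 blastocysts in which a gene had counts. In 5 of them the gap of a sample to the next exceeded the 95% critical value. The usual rate of about 1 group in 20 is for normally distributed values and does not hold for counts near 0. A group at 0 but for 1 embryo is always flagged, as each flagged group of Zp1 was. Zp1 was at 3.43 CPM (2 counts) in 1 of 8 ipsilateral intact blastocysts, at 0.420 CPM (1 count) in 1 of 7 ipsilateral twin pairs and at 0.372 CPM (1 count) in 1 of 6 contralateral twin pairs, and at 0 in the others of each group. Zp2 was at 8.01 CPM (21 counts) in 1 of 7 ipsilateral twin pairs, where the next pair was at 2.55 CPM. Zp3 was at 2.01 CPM (4 counts) in 1 of 6 contralateral twin pairs, where the next was at 0.543 CPM.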

How the results depend on the processing

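Of 553 recomputed values, 474 stayed the same and 41 reversed, none of which was past the threshold. For a difference or a correlation, the same means the same side of the threshold with the same direction. The recomputed values also include counts of genes, members or tests called. For these, the same means only an equal or similar count, many of them 0 in both runs. No paired analysis was possible because no compared groups share replicate numbers.

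Without the low-count filter, counts of genes called moved to 3930 (contralateral against equatorial), 2603 (ipsilateral against equatorial) and 1577 (contralateral against ipsilateral) in 2-cell embryos, 17998 between 2-cell embryos and intact blastocysts, 6385 between twin and intact blastocysts and 1 between ipsilateral and equatorial twins. DESeq2 gave 1321 for ipsilateral against equatorial and 1.2e+02 for contralateral against ipsilateral 2-cell embryos, 6 and 1 in twins against equatorial ICSI and 1 in intact blastocysts. Total counts and detected genes as covariates gave 61 for ipsilateral against equatorial and 1097 for twin against intact. The mitochondrial limit of 2% gave 1104 for contralateral against equatorial ICSI. Of the members, contralateral against equatorial ICSI called 1 under DESeq2 (Astl), 1 within plate 1 (Cd9), 1 with all pairs (Zp1) and 2 by the rank-sum test (Astl and Zp1), and ipsilateral against equatorial ICSI 1 within plate 1 (Cd9). Plate 2 alone left 2 called members between stages, because fewer passed the filter. Twin against intact blastocysts called 2 without the filter (Zp2 and Zp3) and 1 under DESeq2 (Zp2). Izumo1r was the 1 intraclass correlation called within plate 1. By Pearson's r the number of correlated pairs of genes fell to 0 within plate 1 and with depth regressed out, while by Spearman's rho Zp2 with Izumo1r still passed within plate 1 (adjusted p = 0.046 by permutation) and not with depth regressed out (0.052), and of zona shares 2 passed within plate 1 and with all pairs. The cause of these changes was not tested.

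Reversed log2 differences were small. For contralateral minus equatorial ICSI Zp2 was -0.034 (depth covariates), -0.0019 (mitochondrial limit) and -0.072 (rank-sum). For ipsilateral minus equatorial ICSI Zp2 was 0.00997 (no plate term), 0.061 (plate 1) and 0.018 (all pairs), Zp3 was -0.015, -0.21 and -0.088 in the same order and -0.063 by rank-sum, and Izumo1r was -0.016 (depth covariates). For contralateral minus ipsilateral ICSI Zp1 was -0.0032 (library size), -0.10 (no plate term), -0.022 (depth covariates), -0.0061 (all pairs) and -0.14 (rank-sum), Zp2 was -0.0031 (no plate term), -0.0057 (plate 1) and -0.034 (rank-sum), Zp3 was 0.055 (plate 1), and Cd9 was 0.0091 (no plate term) and 0.13 (depth covariates). Cd9 in twin minus intact blastocysts was 0.14 with depth covariates. The sister spread reversed for Zp1 ipsilateral minus equatorial (0.38 with all pairs, 0.022 with a pseudocount of 0.1 CPM), Zp2 contralateral minus equatorial (0.022, plate 1), Zp3 ipsilateral minus equatorial (0.0083, plate 1), and Astl ipsilateral minus equatorial (0.70 in plate 1, 0.21 with all pairs, 0.040 with 0.1 CPM) and contralateral minus ipsilateral (-0.32, plate 1). Intraclass correlations became 0.0023 for Zp1 (plate 1) and -0.12 for Zp2 (all pairs). Within plate 1, r became 0.17 for Zp1 with Zp3, 0.15 for Zp2 with Cd9, 0.027 for Izumo1r with Cd9 and 0.011 for Cd9 with Astl, and contralateral minus ipsilateral shares became 1.18 (Zp1), -1.70 (Zp2) and 0.52 points (Zp3). The Zp3 share of contralateral minus equatorial was -0.50 points with all pairs.

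Depth limits the low blastocyst values, since 1 count in an intact library of 234099 counts is worth more CPM than the mean of Zp3 in twins. The permutation tests of Zp2 and Zp3 in blastocysts, the runs leaving out embryos and the correlations with depth regressed out were added after seeing the data.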
